A study of Mus musculus with 27 samples.

Results

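Mouse bone marrow cells cultured for 48 h with Flt3 ligand (Flt3-L), without cyclosporin A, were compared with cells cultured for 24 h in the same way, across all measured genes. The arrays were chosen by their titles alone: 3 at 48 h and 3 at 24 h, 6 of the 27 arrays of the series. All cells came from femurs and tibiae of C57BL/6 mice of 8 to 12 weeks. They were grown in Iscove's medium with 10% fetal calf serum and Flt3-L at about 200 ng/ml, taken from transfected B16 tumour cells, so the ligand preparation was the product of a tumour line. Whether it was purified is not given in the sources used here. The other arrays cover unstimulated cells, Flt3-L at 12 h and at 11 days, and the same 4 times with cyclosporin A (CsA), an inhibitor of the phosphatase calcineurin, at 2 µg/ml from 30 min before Flt3-L. The series text calls the 3 samples of each group biological replicates, and the labels do not say whether these were single or pooled mice.

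Flt3-L is a growth factor that binds the receptor tyrosine kinase Flt3 on early haematopoietic progenitors and on dendritic cells and their precursors. Marrow kept in Flt3-L alone gives plasmacytoid and conventional dendritic cells after more than a week, while lineages that need other factors are not supported: erythroid cells need erythropoietin, granulocytes need G-CSF or GM-CSF, and eosinophils and mast cells need IL-5, IL-3 or stem cell factor. Unfractionated marrow also holds resident macrophages and monocytes, which take up dying cells, degrade them in lysosomes and export the lipid.

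The values are probe set intensities on a linear scale, called signals here, and a difference is the mean log2 signal at 48 h minus that at 24 h. A gene was called when limma, fitted on all 27 arrays, gave an adjusted p under 0.05. The 6 arrays had medians of 117.3 to 123.9, each resembled its own group more than any other, and the labelled tissue matched its markers: 28 of 37 measured lineage markers lay above the array's median on all 6 arrays. Those that did not were Zbtb46 (conventional dendritic cells), Klf1 and Car1 (red cell precursors), Cd3g, Ncr1 and Il2rb (T and NK cells), and Cxcl12, Cdh5 and Lepr (stroma and endothelium). Same-numbered arrays at 48 h and 24 h deviated together, which the fit on all 27 arrays does not model, as given with the processing steps. The number of arrays limits the precision, and signals of different genes are not compared with each other. In whole cultures, fewer cells of a type and less RNA per cell cannot be told apart.

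Between both times, macrophage, lysosome and lipid export genes rose, and red cell, eosinophil, basophil and granulocyte precursor genes fell. Among the genes that mark dendritic cells, more were called higher than lower. Of 19935 genes, 1936 were called higher at 48 h (9.71%) and 1482 lower (7.43%). Most differences were small: 52 called genes were at least 2-fold higher (0.261%) and 59 at least 2-fold lower (0.296%), and the median difference of all genes was -0.02. Signals at 48 h lay above all 3 at 24 h for 2994 genes (15%) and below all 3 for 2992 (15%).

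The largest rise among the named genes was that of Mmp12, macrophage elastase. Its signals were 2799.7, 2413 and 2397 at 48 h, against 442, 459 and 405 at 24 h. Every array at 48 h was far above the 24 h arrays, a 5.82-fold difference (2.54 ± 0.13 on the log2 scale, SE, 3 arrays a group; limma adjusted p = 1.18e-12). Atp6v0d2, a subunit of the vacuolar proton pump found in osteoclasts and macrophages, had signals of 3637, 3729 and 3430.5 at 48 h, against 716, 741 and 819.5 at 24 h, again without overlap (2.25 ± 0.11, adjusted p = 1.29e-12). Bex1, a small protein first known from brain, was dim at both times, with 66.4, 82.9 and 80.5 at 48 h, against 19.7, 18.7 and 21.6 at 24 h, and its groups did not overlap (1.93 ± 0.16, adjusted p = 3.02e-09). Mfge8, which bridges dying cells to the integrins of phagocytes, had signals of 678, 780.2 and 842 at 48 h, against 242, 259.5 and 250.5 at 24 h. The groups were apart, with a 3.05-fold difference on average. Gas6, the ligand of the phagocyte receptors Axl and Mertk, had 847, 1079 and 1136 at 48 h, against 314, 375 and 323 at 24 h, a difference of 1.59 ± 0.10.

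Further genes among the 15 largest rises were Plau (1.62 ± 0.12), urokinase, Fabp7 (1.62 ± 0.16), a fatty acid-binding protein, Akr1b8 (1.61 ± 0.12), an aldo-keto reductase, and Flrt2 (1.48 ± 0.12), a leucine-rich transmembrane protein. Siglec1 (1.45 ± 0.09), the macrophage sialic acid receptor sialoadhesin, Il1a (1.42 ± 0.14), the cytokine IL-1 alpha, Cnrip1 (1.41 ± 0.07), which binds the cannabinoid receptor, Lpl (1.35 ± 0.12), lipoprotein lipase, and Rgs1 (1.34 ± 0.14), a brake on G protein signalling, complete the set with Cd5l. Cd5l, a secreted scavenger receptor protein of tissue macrophages, had the widest spread, with signals of 1302, 723 and 840.3 at 48 h, against 520.0, 241 and 242 at 24 h. Its first array was the highest of its group at both times, and its call (adjusted p = 0.00805) was lost without the first array at 48 h, at an adjusted p of 0.0508.

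**Figure D1:**
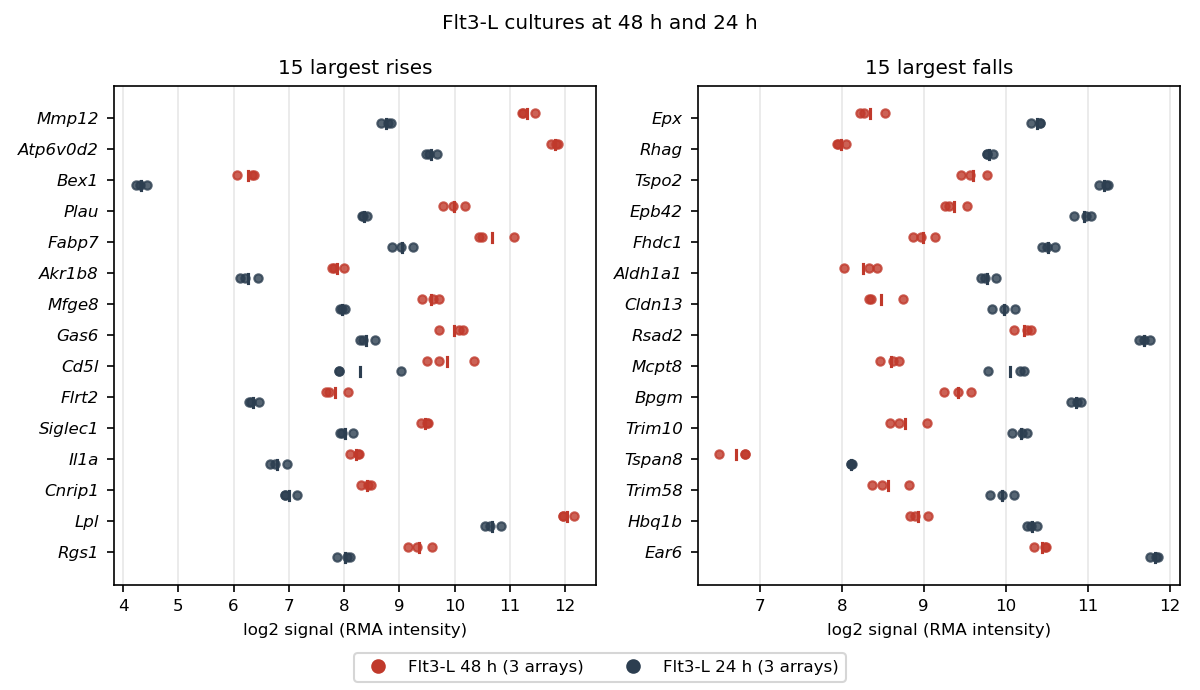
Log2 signal (horizontal axis) of the 15 largest rises and the 15 largest falls among called genes, in the 3 arrays at 48 h (red) and the 3 at 24 h (dark blue). Points are single arrays and bars are group means. Mmp12 at the top left differs by 2.54 and Epx at the top right by -2.04. Genes with overlapping groups were left out by the choice of genes.

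The largest fall was that of Epx, eosinophil peroxidase. Its signals were 299, 309 and 369 at 48 h, against 1269, 1364 and 1365 at 24 h. The highest array at 48 h was far below the lowest at 24 h, a 4.11-fold lower level at 48 h (-2.04 ± 0.12, limma adjusted p = 1.12e-11). Rhag, the Rh-associated glycoprotein of the red cell membrane, had 249, 247 and 266 at 48 h, against 870.0, 919 and 876 at 24 h, with little spread inside either group (-1.81 ± 0.06, adjusted p = 1.07e-15). Rsad2, the antiviral enzyme viperin, had 1100.5, 1226 and 1268 at 48 h, against 3274, 3152 and 3460.0 at 24 h, and its groups were also apart (-1.46 ± 0.09).

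Most of the other large falls were genes known from red cell precursors. They were Tspo2 (-1.60 ± 0.13), an erythroid translocator protein, Epb42 (-1.58 ± 0.11), protein 4.2 of the membrane skeleton, Cldn13 (-1.50 ± 0.12), a claudin of mouse erythroid cells, Bpgm (-1.44 ± 0.09), which makes bisphosphoglycerate, and Trim10 (-1.40 ± 0.10) and Trim58 (-1.39 ± 0.10), ubiquitin ligases of late erythroblasts. Hbq1b (-1.39 ± 0.13), a theta globin gene, has a near-identical copy, so its own value is uncertain. Mcpt8 (-1.46 ± 0.16), a basophil protease, and Ear6 (-1.37 ± 0.13), one of several closely similar eosinophil ribonucleases, also fell. The set ends with Aldh1a1 (-1.51 ± 0.11), a retinaldehyde dehydrogenase, Tspan8 (-1.40 ± 0.11), a tetraspanin, and Fhdc1 (-1.52 ± 0.08), a formin-type actin regulator.

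Macrophage genes rose at 48 h, led by the complement gene C1qc and the mannose receptor gene Mrc1. Of 23 measured genes of macrophage identity and surface, 17 were called higher and 1 lower (2 lower with the replicate number as a block in the fit), with a median difference of 0.44, against the 9.71% and 7.43% of all genes called. C1qc, a chain of the C1q complement protein that macrophages secrete, had signals of 2966, 3314 and 2635 at 48 h, against 1483, 1265 and 856 at 24 h. Every 48 h array was above every 24 h array (1.34 ± 0.17), and the chains C1qa (0.97 ± 0.15) and C1qb (0.88 ± 0.12) rose with it. Mrc1, the mannose receptor, had 1019, 1088 and 1092 at 48 h, against 449, 431 and 452 at 24 h, also without overlap (1.26 ± 0.16). Among receptors that recognise dying cells, Mertk rose by 0.87, Axl by 0.69 and Trem2 by 0.96. Ms4a7 (1.01), Fcgr1 (0.60), which binds IgG, Adgre1 (0.44), the F4/80 antigen, and Csf1r (0.28), the receptor of M-CSF, rose as well. Itgam (-0.18 ± 0.05), the CD11b integrin shared with granulocytes, was the called fall, while Lyz2 (-0.01 ± 0.05), lysozyme, and Cd14 (0.13 ± 0.11) were not called. The summed signal of 5 macrophage markers was 14852 to 15237 at 48 h and 11083 to 11506 at 24 h.

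The PU-box core, bound by the myeloid factor PU.1, was searched as GAGGAA on both strands in the RefSeq promoters (GRCm38.p6, 250 bases before to 50 after the gene's start). It was in 70.6% of the 17 macrophage list genes with a listed promoter, against 31.3% of all 27025 genes with a listed promoter. The C1qc promoter (chr4:136892865-136893164, minus strand) is shown because C1qc led the list, with the match in capitals. In this and the later lists, the promoter shown is that of the called member with the largest difference among those that hold the motif. A match describes the letters and is not evidence of binding.
C1qc: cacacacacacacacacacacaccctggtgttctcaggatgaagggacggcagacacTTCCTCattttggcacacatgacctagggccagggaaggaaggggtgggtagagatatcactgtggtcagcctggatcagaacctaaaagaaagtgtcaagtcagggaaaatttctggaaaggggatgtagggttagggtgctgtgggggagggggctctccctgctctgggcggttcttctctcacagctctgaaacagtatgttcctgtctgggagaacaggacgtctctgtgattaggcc

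Genes of the lysosome rose together at 48 h. Of 30 measured lysosomal hydrolases and membrane proteins, 22 were called higher and 0 lower, with a median difference of 0.28. Ctsl, cathepsin L, a cysteine protease, had signals of 4226, 3508 and 3557 at 48 h, against 1879, 1729 and 1764 at 24 h. The 48 h arrays were all above the 24 h arrays, 2.10-fold on average (1.07 ± 0.08, limma adjusted p = 2.08e-10). Enzymes that break down glycans and glycolipids had smaller rises: Naglu by 0.60, Gla by 0.57, Gusb by 0.51, Glb1 by 0.47 and Hexa by 0.33. The proteases Ctsd (0.29), Ctsb (0.24) and Ctss (0.30), the acid lipase Lipa (0.36) and the cholesterol carriers Npc1 (0.34) and Npc2 (0.28) were also called higher. Lamp2 (0.05 ± 0.06) and the sialidase Neu1 (-0.12 ± 0.06) were among the 8 members not called.

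The vacuolar proton pump acidifies the lysosome. Of its 15 measured subunit and accessory genes, 8 were called higher and 0 lower, with a median of 0.15. Atp6v0d2 stood apart at 2.25, beside 0.47 for Atp6v1c1, 0.42 for Atp6v1a and 0.40 for Atp6v0a1. Its ubiquitous counterpart Atp6v0d1 was not called (0.03 ± 0.06).

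The E-box CACGTG, which reads the same on both strands, is the core of the CLEAR element recognised by TFEB and related factors. It was in 38.5% of the 26 lysosomal list genes with a promoter, against 8.09% of all genes with a promoter. The Ctsl promoter (chr13:64370471-64370770, minus strand) holds it once, in capitals. Tfeb itself was not called (0.02 ± 0.05).
Ctsl: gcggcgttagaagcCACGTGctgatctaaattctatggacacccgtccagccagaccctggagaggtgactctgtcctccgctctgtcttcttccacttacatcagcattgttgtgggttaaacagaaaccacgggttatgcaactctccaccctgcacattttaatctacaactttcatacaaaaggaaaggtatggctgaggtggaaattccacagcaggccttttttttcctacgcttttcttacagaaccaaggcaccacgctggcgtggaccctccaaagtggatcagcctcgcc

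Genes of lipid uptake, storage and export rose as well. Of 20 measured genes of lipid handling, including targets of the nuclear receptors LXR and PPARg, 13 were called higher and 1 lower, with a median of 0.50. Lpl, which frees fatty acids from lipoproteins, had signals of 4598, 3965 and 3975 at 48 h, against 1822, 1500.2 and 1605 at 24 h. Those of Abca1, which exports cholesterol, were 948, 969 and 1029.8 at 48 h, against 429.5, 478 and 476 at 24 h. Neither gene's groups overlapped, with differences of 1.35 ± 0.12 for Lpl and 1.09 ± 0.07 for Abca1. Fabp4 (1.09 ± 0.13) and Fabp5 (0.63 ± 0.09), carriers of fatty acids, Cd36 (1.02 ± 0.07), a scavenger receptor and fatty acid transporter, Abcg1 (0.72 ± 0.07), another sterol exporter, Pltp (0.67 ± 0.09), the phospholipid transfer protein, and Apoe (0.52 ± 0.08) rose. So did the receptors Pparg (0.75 ± 0.09) and Nr1h3, the gene of LXR alpha (0.66 ± 0.08). Olr1, a receptor of oxidised LDL, fell (-0.66 ± 0.09).

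Of 20 measured sterol synthesis genes 1 was called higher, Dhcr7 (0.20), and 0 lower, against 9.71% and 7.43% of all genes. Dhcr7 lost its call with the replicate block (adjusted p = 0.0743), where 2 others gained one, and without the third array at 24 h or the second or the third at 48 h, or with only the 6 arrays in the fit (adjusted p 0.0915 to 0.264). Of 15 fatty acid synthesis genes 5 were called higher and 0 lower (1 with the block), led by the desaturases Fads2 (0.67) and Fads1 (0.65) and by Scd2 (0.48), which is also in the lipid handling list.

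Among secreted and cell-surface proteases the changes went both ways, and the rises were larger. Of 22 measured genes of matrix and pericellular proteolysis, 9 were called higher and 3 lower, with a median of 0.04. After Mmp12, Plau had signals of 1166, 887 and 1003 at 48 h, against 326, 321 and 341 at 24 h. Anpep, aminopeptidase N, had 2674, 2922 and 2986 at 48 h, against 1179, 1315 and 1316 at 24 h, and Timp3, an inhibitor of metalloproteinases, had 581, 629 and 641 at 48 h, against 221, 319.9 and 338 at 24 h. In all 3 genes the arrays of both times were apart. Mmp25 (-0.50 ± 0.15), a neutrophil metalloproteinase, Mmp2 (-0.28 ± 0.07), gelatinase A, and Plat (-0.25 ± 0.08), the tissue plasminogen activator, fell. The lower count was 1 without the second array at 24 h and 0 without both first arrays, and Mmp25 lost its call without the second array at 24 h (adjusted p = 0.0678) or the first at 48 h (adjusted p = 0.0835).

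Atp6v0d2 is also a gene of osteoclast fusion, and 18 osteoclast genes were measured, of which 8 were called higher and 2 lower (median 0.14). Tnfrsf11a, the receptor RANK, rose by 0.62, Dcstamp, needed for cell fusion, by 0.41 and the integrin Itgb3, shared with platelets, by 0.37. The late osteoclast enzymes Acp5 (-0.17 ± 0.07) and Ctsk (0.07 ± 0.12) and the factor Nfatc1 (-0.01 ± 0.06) were not called, and Car2, carbonic anhydrase, which red cell precursors also express, fell (-1.15 ± 0.16). Without both first arrays 5 osteoclast genes were called higher.

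**Figure D2:**
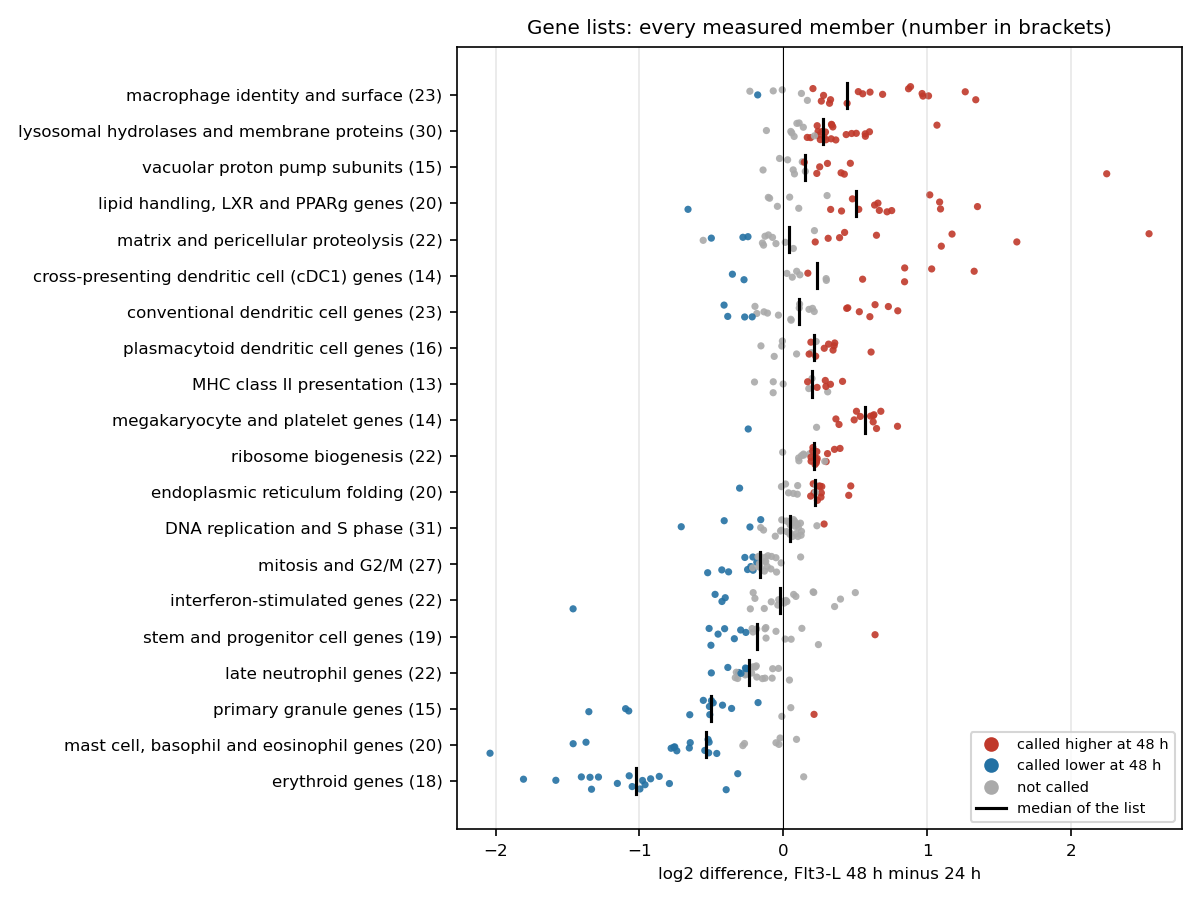
Difference in log2 signal, 48 h minus 24 h (horizontal axis), of every measured member of 20 gene lists, with the number of members in brackets. Red points were called higher, blue points lower and grey points not called, and the black bar is the list's median, which ranges between 0.57 for megakaryocyte genes and -1.02 for erythroid genes.

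More genes of dendritic cells were called higher than lower, with the largest rises among those of the cross-presenting type (cDC1). Of 14 measured cDC1 genes, 6 were called higher and 2 lower, with a median of 0.23. Xcr1, the chemokine receptor that defines cDC1, had signals of 182, 192 and 178 at 48 h, against 63.6, 79.7 and 78.1 at 24 h. Tlr3, which senses double-stranded RNA, had 135, 159.9 and 153 at 48 h, against 68.2, 78.4 and 72.3 at 24 h, and Clec9a, a receptor for dead cells, had 265, 269.8 and 296 at 48 h, against 144, 162 and 158 at 24 h. In all 3 the groups were apart, with differences of 1.33 ± 0.17 for Xcr1, 1.03 ± 0.11 for Tlr3 and 0.84 ± 0.13 for Clec9a. Gcsam (0.84) and the adhesion molecule Cadm1 (0.55) rose too. The factors Batf3 (0.09 ± 0.09) and Irf8 (0.30 ± 0.11) were not called, Irf8 being called with the replicate block (adjusted p = 0.00592), and Cd8a (-0.35 ± 0.09), also a T cell gene, fell. The lower count was 1 without any 1 of the arrays other than the second at 24 h.

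Of 23 measured conventional dendritic cell genes, 7 were called higher and 4 lower (median 0.11). Flt3, the receptor of the factor in the medium, had signals of 923, 942 and 930.2 at 48 h, against 579.8, 620.5 and 598 at 24 h, without overlap (0.64 ± 0.09). Itgax, the CD11c integrin, rose by 0.79 and Cd209a by 0.73, as did the costimulatory molecules Cd86 (0.44) and Cd83 (0.45) and the chemokine Ccl22 (0.60). The chemokine receptor Ccr7 (-0.20 ± 0.13; 0.0381 as its adjusted p with the block) and Fscn1 (0.05 ± 0.14), which bundles actin, were not called, and Mreg (-0.41 ± 0.12) and the chemokine Ccl17 (-0.27 ± 0.08) fell. The lower count was 2 without the second or the third array at 24 h or the first at 48 h, and 0 without both first arrays. Zbtb46, the factor particular to this lineage, was dim and not called (0.18 ± 0.07), but was called with the block, at an adjusted p of 0.0361.

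Plasmacytoid dendritic cell genes were called higher in 9 of 16 and lower in 0 (median 0.21), with small differences. Cox6a2 rose by 0.61, the endosomal sensor Tlr7 by 0.31 and the factor Tcf4 by 0.22, while Siglech, a receptor of these cells, was not called (0.19 ± 0.08). Of 13 genes of MHC class II presentation 6 were called higher and 0 lower (1 with the block). Ciita, their master regulator, rose by 0.41, H2-Ab1 by 0.33, H2-Eb1 by 0.29 and H2-Aa by 0.23. The summed signal of 4 dendritic cell markers was 6329 to 6924 at 48 h and 4716 to 5224 at 24 h. Most of that sum was H2-Ab1, with mean log2 signals of 12.25 at 48 h and 11.92 at 24 h. The sum therefore says little about Itgax, Flt3 and Zbtb46.

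Platelet and megakaryocyte genes rose. Of 14 measured, 12 were called higher and 1 lower, Nbeal2 (-0.24 ± 0.07), and the median was 0.57. Gp9, a subunit of the von Willebrand factor receptor, had signals of 875, 1147 and 999 at 48 h, against 567, 681 and 676 at 24 h. Mmrn1, multimerin, had 409, 609 and 614 at 48 h, against 237, 329.5 and 376 at 24 h, and Pf4, platelet factor 4, had 3290.0, 3662 and 3586 at 48 h, against 2018, 2264 and 2313 at 24 h. The lowest array at 48 h was above the highest at 24 h in each. Vwf (0.63 ± 0.11), von Willebrand factor, Gp5 (0.61 ± 0.20), Clec1b (0.53 ± 0.16), the CLEC-2 receptor, and Itga2b (0.39 ± 0.12), the platelet integrin, moved alike. The count depended on single arrays: 6 members were called higher without the first array at 24 h, 8 without the second at 24 h or the third at 48 h, and 9 without the second at 48 h. With only the 6 arrays in the fit it was 7.

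Red cell genes fell at 48 h, with the lowest median of the 43 lists. Of 18 measured, 17 were called lower and 0 higher, the median difference was -1.02, and leaving out any 1 of the 6 arrays gave 16 to 17 lower calls. Slc4a1, band 3 of the red cell membrane, had signals of 2680.1, 2569 and 2892 at 48 h, against 5871, 5331 and 5656 at 24 h. Those of Alas2, the first enzyme of haem synthesis in red cells, were 3517, 3341 and 3730.3 at 48 h, against 6861, 6387 and 6809 at 24 h, and those of Klf1, the erythroid master factor, were 117, 89.1 and 104 at 48 h, against 199, 184 and 178 at 24 h. Each of the 3 was lower on every 48 h array. Genes of the membrane and its skeleton were among the lowest, with -1.81 ± 0.06 for Rhag, -1.58 ± 0.11 for Epb42, -1.34 ± 0.13 for Rhd and -1.33 ± 0.08 for Ank1, ankyrin. Haem synthesis followed with -1.07 ± 0.07 for Fech, ferrochelatase. The factor Gata1 (-0.32 ± 0.10) and the erythropoietin receptor Epor (-0.40 ± 0.10) fell by less, and Tfrc, the transferrin receptor, which dividing cells of all kinds use, was not called (0.14 ± 0.06). The summed signal of 3 erythroid markers was 3548 to 3994 at 48 h and 6790 to 7333 at 24 h. Nearly all of that sum was Alas2, so it adds little to the values of Alas2 above.

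GATA factors direct erythroid, mast cell and eosinophil genes, and the motif AGATAA was searched on both strands. It was in 46.2% of 13 erythroid list genes with a promoter and in 44.4% of 18 mast cell, basophil and eosinophil list genes, against 12.7% of all genes with a promoter and 5.88% of the macrophage promoters. The promoters of Epb42 (chr2:121036828-121037127, minus strand) and of Prss34, a basophil protease (chr17:25298144-25298443, plus strand), are shown with the matches in capitals.
Epb42: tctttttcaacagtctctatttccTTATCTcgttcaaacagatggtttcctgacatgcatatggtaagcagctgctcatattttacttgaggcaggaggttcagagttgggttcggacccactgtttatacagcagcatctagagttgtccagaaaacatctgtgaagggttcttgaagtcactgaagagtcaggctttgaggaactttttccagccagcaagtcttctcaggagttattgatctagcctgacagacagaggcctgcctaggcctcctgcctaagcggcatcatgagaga
Prss34: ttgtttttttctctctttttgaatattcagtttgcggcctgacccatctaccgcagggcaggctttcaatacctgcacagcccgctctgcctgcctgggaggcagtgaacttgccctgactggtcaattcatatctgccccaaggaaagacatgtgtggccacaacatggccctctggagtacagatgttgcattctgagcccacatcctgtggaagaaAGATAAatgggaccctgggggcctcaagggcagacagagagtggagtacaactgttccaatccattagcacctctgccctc

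Eosinophil, basophil and mast cell genes fell too. Of 20 measured, 14 were called lower and 0 higher, with a median of -0.53. Mcpt8, a protease of basophils, had signals of 354, 394 and 415 at 48 h, against 882, 1149 and 1190.1 at 24 h. Prg2, the eosinophil major basic protein, had 2001, 2099 and 1705 at 48 h, against 3574, 3476 and 2919 at 24 h, and Prss34 had 914, 854 and 946 at 48 h, against 1582, 1557 and 1459.5 at 24 h. The times were apart in each of them. Receptors fell with the granule genes: Fcer1a (-0.65 ± 0.22) and Ms4a2 (-0.65 ± 0.11), chains of the IgE receptor, Ccr3 (-0.55 ± 0.13), the eotaxin receptor, and Il5ra (-0.46 ± 0.13), the IL-5 receptor. The factor Gata2 (-0.52 ± 0.07) and Cpa3, a mast cell carboxypeptidase (-0.52 ± 0.12), fell as well. Connective tissue mast cell proteases, Cma1 (0.09 ± 0.10), Mcpt4 (-0.05 ± 0.07) and Tpsb2 (-0.03 ± 0.08), were not called.

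Genes of granulocyte precursors fell. Of 15 measured genes of primary granules and the promyelocyte stage, 12 were called lower and 1 higher, with a median of -0.50. Fcnb, ficolin B, had signals of 915, 985 and 925 at 48 h, against 2394, 2481 and 2333 at 24 h. Mpo, myeloperoxidase, had 2888, 2853 and 2956 at 48 h, against 4002, 3824 and 3834 at 24 h, and Elane, neutrophil elastase, had 3966, 4077 and 3837 at 48 h, against 5704, 5666 and 5292 at 24 h. All 3 were lower on every 48 h array, with differences of -1.35 ± 0.07 for Fcnb, -0.42 ± 0.08 for Mpo and -0.49 ± 0.09 for Elane. The factors Gfi1 (-0.65 ± 0.07) and Cebpe (-0.50 ± 0.09) fell with them.

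Genes of later neutrophils were less clear. Of 22 measured, 7 were called lower and 0 higher, with a median of -0.24. Csf3r, the G-CSF receptor, fell by 0.29 on the log2 scale, and the secondary granule genes Ltf (-0.03 ± 0.07), Lcn2 (-0.07 ± 0.07) and Ngp (-0.08 ± 0.12) were not called. This count depended on single arrays: it was 1 without the first array at 48 h, 4 without the third at 48 h or without the first or the third at 24 h, 3 without the second at 24 h, and 0 without both first arrays. With the replicate number as a block it was 14, and with only the 6 arrays in the fit 11. Csf3r lost its call without the first array at 48 h (adjusted p = 0.0599). The 4 neutrophil markers summed to 20225 to 21571 at 48 h and 22653 to 23626 at 24 h, and 4 granulocyte progenitor markers to 9813 to 10293 at 48 h and 13607 to 13955 at 24 h.

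Stem and progenitor genes fell in part. Of 19 measured, 7 were called lower and 1 higher, Flt3, with a median of -0.19. Kit, the stem cell factor receptor, had signals of 513, 523 and 472 at 48 h, against 648, 657 and 605 at 24 h, lower on every 48 h array (-0.34 ± 0.12). Erg (-0.50 ± 0.07), Tal1 (-0.45 ± 0.09), Gata2 (-0.52 ± 0.07) and Myb (-0.41 ± 0.05), transcription factors of early progenitors, were called lower, while Cd34 (-0.21 ± 0.09), Meis1 (0.24 ± 0.10) and Hoxa9 (0.05 ± 0.06) were not called. With the replicate block Cd34 (adjusted p = 0.0232) and Meis1 (adjusted p = 0.0110) were called, which made 2 higher.

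B lineage genes fell in part. Of 22 measured, 9 were called lower and 2 higher, against 7.43% and 9.71% of all genes, with a median of -0.25. Igll1, a surrogate light chain of pro-B and pre-B cells, had signals of 536, 462 and 434 at 48 h, against 1137, 984 and 953 at 24 h. Rag1, a recombinase that joins immune receptor segments, had 334, 312 and 351 at 48 h, against 616, 516 and 585 at 24 h. Igll1 (-1.10 ± 0.11), Rag1 (-0.78 ± 0.14), Rag2 (-0.77 ± 0.11) and Vpreb3 (-0.51 ± 0.12) fell, as did the factors Ebf1 (-0.43 ± 0.14) and Pax5 (-0.35 ± 0.10). Vpreb1 (-0.29 ± 0.12), another surrogate light chain, Ms4a1 (0.10 ± 0.15), the CD20 antigen, and Cd22 (0.16 ± 0.10) were not called, Vpreb1 being called with the replicate block (adjusted p = 0.00543). Il7r (0.31 ± 0.06), the IL-7 receptor of early lymphocytes, and Cr2 (0.24 ± 0.07), a complement receptor, rose. Without the first array at 24 h, 4 genes were called lower, and without the second at 48 h 5, and 1 was called higher without the third array of either time.

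Of 23 measured T and NK cell genes 8 were called lower and 2 higher (median -0.16), against 7.43% and 9.71% of all genes. Cd3g (-0.76 ± 0.19), Cd2 (-0.58 ± 0.09), Il2rb (-0.57 ± 0.13) and Cd3e (-0.48 ± 0.13) fell. Cd4, also a gene of dendritic cells and macrophages, rose (0.77 ± 0.16), and the killer cell receptor Klrd1 rose (0.35 ± 0.11). Without the second or the third array at 48 h, 5 were called lower, and 1 was called higher without either of these or the first at 24 h.

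Mitosis genes fell in part. Of 31 measured genes of DNA replication and S phase, 1 was called higher, Pcna (0.28 ± 0.06), and 4 lower, with a median of 0.05. Called lower were E2f2 (-0.71 ± 0.06), a factor abundant in erythroid cells, Ccne2 (-0.41 ± 0.10), a cyclin E, Rrm2 (-0.23 ± 0.07), a ribonucleotide reductase subunit, and Cdc45 (-0.16 ± 0.05), a helicase cofactor whose call was lost with the replicate block (adjusted p = 0.0636). The lower count was 2 without the second or the third array at 24 h or the first at 48 h. Rrm2 lost its call without the second (adjusted p = 0.0977) or the third array at 24 h (adjusted p = 0.051), and Ccne2 without the first at 48 h (adjusted p = 0.0631). Of 27 measured genes of mitosis, 9 were called lower and 0 higher, against 7.43% and 9.71% of all genes, with a median of -0.16, and 14 were called lower with the replicate number as a block. Cdc25b, a phosphatase that activates Cdk1, had signals of 480.5, 458 and 504 at 48 h, against 713, 643 and 722 at 24 h. Ube2c, a ubiquitin carrier of the anaphase-promoting complex, had 786, 842 and 774 at 48 h, against 1113, 1016 and 1000.3 at 24 h. Both were lower on every 48 h array, with differences of -0.53 ± 0.07 for Cdc25b and -0.38 ± 0.07 for Ube2c. Nusap1, a spindle protein, was -0.43 ± 0.08 and Mki67, the Ki-67 antigen, -0.25 ± 0.05.

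The CHR element TTTGAA is a motif of late cell cycle genes. It was in 71.4% of 21 mitosis list genes with a promoter on either strand, against 20.2% of all genes with a promoter. The Ube2c promoter (chr2:164769679-164769978, plus strand) is shown with its matches in capitals.
Ube2c: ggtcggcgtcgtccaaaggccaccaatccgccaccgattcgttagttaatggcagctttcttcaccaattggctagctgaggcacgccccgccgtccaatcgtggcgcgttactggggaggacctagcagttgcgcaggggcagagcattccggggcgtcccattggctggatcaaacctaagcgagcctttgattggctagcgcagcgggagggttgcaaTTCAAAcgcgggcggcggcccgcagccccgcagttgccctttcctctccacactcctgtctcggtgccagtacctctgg

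Among the genes that control entry into the cycle, 16 were measured, 3 were called higher and 6 lower. The D cyclins Ccnd1 (0.72 ± 0.07) and Ccnd2 (0.27 ± 0.07) and their kinase Cdk4 (0.17 ± 0.05) rose. The inhibitors Cdkn1b (-0.42 ± 0.06), the p27 protein, Cdkn2d (-0.33 ± 0.09) and Cdkn2c (-0.22 ± 0.06) fell. The count of lower calls was 3 without the first array at 24 h or without the first at 48 h, 2 without the second at 24 h, and 3 with only the 6 arrays in the fit. Cdkn2d lost its call without the first (adjusted p = 0.0505) or the second array at 24 h (adjusted p = 0.0607).

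Genes of protein production rose by small amounts. Of 22 measured ribosome biogenesis genes, 14 were called higher and 0 lower (median 0.21), led by Gnl3 (0.39 ± 0.06), a nucleolar GTPase, and Nhp2 (0.36 ± 0.07) and Fbl (0.31 ± 0.07), proteins of small nucleolar RNPs. The count was 8 without the first array at 24 h, 7 without the third at 48 h and 6 with only the 6 arrays in the fit. Of 20 measured folding genes of the endoplasmic reticulum, 11 were called higher and 1 lower, Herpud1 (-0.30 ± 0.07), with 6 higher without both first arrays. Sdf2l1 (0.47 ± 0.11), Pdia6 (0.45 ± 0.07), a disulphide isomerase, and Hspa5 (0.26 ± 0.06), the chaperone BiP, rose.

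Inflammatory genes were called at about the background share. Of 24 measured genes of inflammatory cytokines and NF-kappaB signalling, 3 were called higher and 1 lower, against 9.71% and 7.43% of all genes, with a median of 0.00. Il1a, IL-1 alpha, had signals of 276, 306 and 310.0 at 48 h, against 101, 126 and 107 at 24 h, every 48 h array being above every 24 h array (1.42 ± 0.14). Il1b, IL-1 beta, was not called (-0.22 ± 0.19), nor were Tnf (0.20 ± 0.09) and Il6 (-0.28 ± 0.14). Il18 (0.42 ± 0.10) rose, and Nfkbia (-0.39 ± 0.08), the NF-kappaB inhibitor, fell. With the replicate number as a block 8 were called higher and 5 lower, among them Tnf (adjusted p = 0.0261), Il6 (adjusted p = 0.0180) and Il1b (adjusted p = 0.0495).

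Of 22 measured interferon-stimulated genes 0 were called higher and 4 lower, against 9.71% and 7.43% of all genes, with a median of -0.02. Rsad2 fell by 1.46 on the log2 scale, while Ifit1 (-0.47 ± 0.14), Usp18 (-0.43 ± 0.14) and Oas3 (-0.40 ± 0.10) fell by less. Ifit3 (0.50 ± 0.26), Cxcl10 (0.40 ± 0.19), Irf7 (-0.01 ± 0.11) and Mx1 (0.07 ± 0.18) were not called. The block gave 2 higher calls. Without the third array at 24 h 2 were higher and 2 lower, and without the first or the second at 48 h 2 were lower. Ifit1 and Usp18 lost their calls in those settings: without the third array at 24 h Ifit1 was at -0.24 (adjusted p = 0.233) and Usp18 at -0.25 (adjusted p = 0.293). Usp18 was also not called without the third array at 48 h (adjusted p = 0.107) or with trended and robust variances (adjusted p = 0.0548). With only the 6 arrays in the fit they were not called either, at adjusted p of 0.105 for Ifit1 and 0.0684 for Usp18.

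Of 22 measured chemokine ligand genes 8 were called higher and 2 lower, against 9.71% and 7.43% of all genes. Ccl7 (0.91 ± 0.14) and Ccl2 (0.61 ± 0.12), which draw monocytes, and Ccl22 (0.60 ± 0.13) rose, besides the platelet chemokines Pf4 and Ppbp, and Ccl5 (-0.39 ± 0.12) fell. Without the first array at 24 h 5 were called higher, and 1 was called lower without the second or the third at 24 h or the first or the third at 48 h. Of 15 chemokine receptors 0 were called higher and 5 lower: Ccrl2 (-0.57 ± 0.10), Ccr3, Ackr3 (-0.49 ± 0.11), Cxcr1 (-0.33 ± 0.10) and Cxcr4 (-0.26 ± 0.05), the receptor that holds cells in the marrow. Cxcr1 lost its call without the first or the third array at 24 h or the second or the third at 48 h (adjusted p 0.099 to 0.124) and with only the 6 arrays in the fit (adjusted p = 0.0554). Without both first arrays 3 were called lower, and with the block 1 was called higher. Of 22 immediate early genes, 3 were called higher and 1 lower, near the shares of all genes, with a median of 0.02. Egr2 (1.17 ± 0.10), Atf3 (0.75 ± 0.10) and Myc (0.22 ± 0.07) were the higher calls and Jund (-0.56 ± 0.05) the lower one. Fos (0.22 ± 0.09), Jun (0.07 ± 0.05) and Egr1 (0.01 ± 0.12) were not called. Myc lost its call without the first or the second array at 24 h or the first or the third at 48 h (adjusted p 0.0777 to 0.164) and with only the 6 arrays in the fit (adjusted p = 0.0903). With the block 5 were higher, Fos among them (adjusted p = 0.0217), and 2 lower.

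The same genes over the whole Flt3-L series place this step between earlier and later ones. The step before (24 h minus 12 h) uses the same 24 h arrays and the step after (11 days minus 48 h) the same 48 h arrays, so their values are given side by side and not set against each other. In the step before, 5.59% of all genes were called higher and 5.52% lower, and in the step after 24.2% and 18.8%. Macrophage genes were called higher in 16 and lower in 0 of 23 before, and higher in 19 and lower in 2 after. Erythroid genes were called lower in 16 of 18 before and in 14 after. Megakaryocyte genes were called higher in 6 and lower in 0 of 14 before, and higher in 0 and lower in 12 after.

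Mean log2 signals of Mmp12 were 5.77 ± 0.32 in unstimulated cells, 7.37 ± 0.21 at 12 h, 8.76 ± 0.09 at 24 h, 11.30 ± 0.13 at 48 h and 12.80 ± 0.03 at 11 days (SD, n = 3 arrays each). Its mean was higher at each later time. C1qc had 9.41 ± 0.25 in unstimulated cells, 8.19 ± 0.23 at 12 h, 10.19 ± 0.41 at 24 h, 11.53 ± 0.17 at 48 h and 12.57 ± 0.06 at 11 days, with its lowest level at 12 h. Xcr1 means were 6.00, 6.20, 6.20, 7.52 and 10.10 at the same 5 points, with the main part of the gain after 48 h.

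Gp9 means were 10.06, 8.93, 9.32, 9.97 and 7.19 in unstimulated cells, at 12 h, 24 h, 48 h and 11 days, which puts 48 h at about the unstimulated level, before the largest drop. Rhag had 11.69 ± 0.10 in unstimulated cells, 11.24 ± 0.09 at 12 h, 9.79 ± 0.04 at 24 h, 7.99 ± 0.06 at 48 h and 4.53 ± 0.09 at 11 days, lower at each later time, and Epx had means of 11.53, 10.98, 10.38, 8.34 and 5.89. Rsad2 means were 11.72, 11.97, 11.69, 10.22 and 9.25, with its highest level at 12 h. Flt3 means were 8.34, 8.74, 9.23, 9.86 and 9.44, and Fcnb means 11.41, 11.35, 11.23, 9.88 and 6.36.

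**Figure D3:**
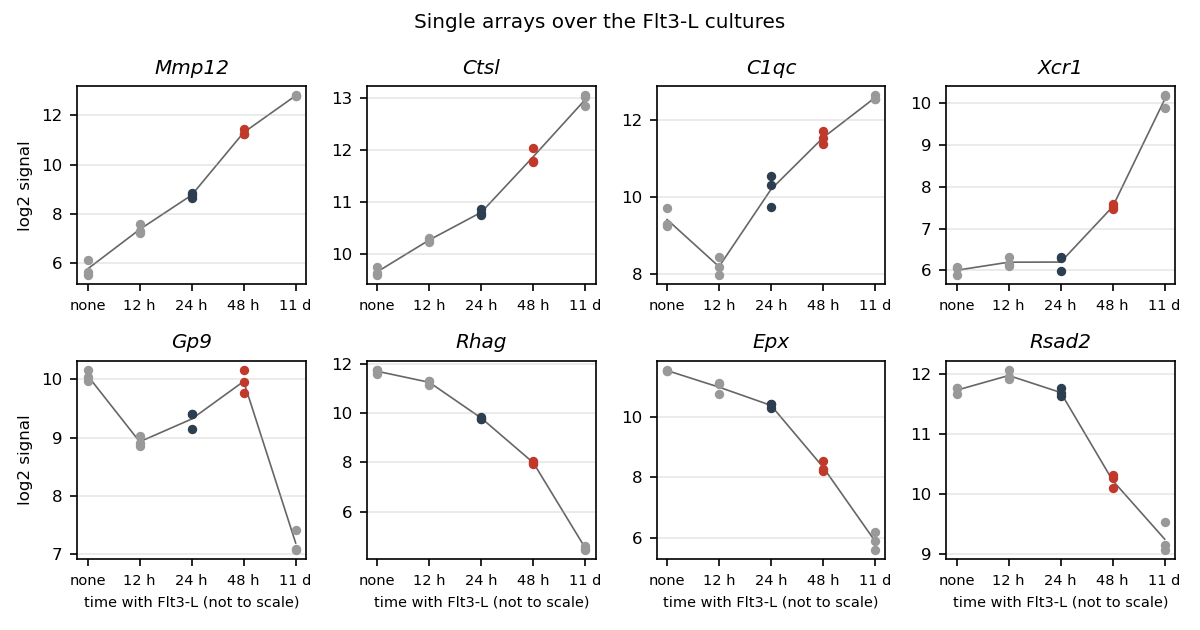
Log2 signal (vertical axis) of 8 genes over time with Flt3-L (horizontal axis, not to scale), none standing for unstimulated cells. Points are single arrays, the line joins the means of 3 arrays, and the 24 h and 48 h arrays are dark blue and red; the mean of Mmp12 is higher and that of Rhag lower at each later time, while Gp9 dips at 12 h and is lowest at 11 days.

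The cultures with CsA give the same step, with group means from arrays that do not enter the means of the first comparison. Both steps come from the same fit on all arrays and share each gene's variance estimate. Their calls are therefore not independent, and the shares of calls in common below are descriptions. Same-numbered arrays with and without CsA also deviated together at 24 h (correlations of 0.37, 0.35 and 0.40). At 48 h the values were 0.54, 0.18 and 0.19, against 0.23 and 0.22 between the unlike numbers 2 and 3. The labels do not say whether same-numbered arrays share a marrow preparation. With CsA, 2587 genes were called higher at 48 h than at 24 h (13%) and 1841 lower (9.24%). Of the 1936 genes called higher without CsA, 1697 (87.7%) were called higher with it, which is 65.6% of the 2587, and 0 were called lower. Of the 1482 called lower without CsA, 1234 (83.3%) were called lower with it, 67.0% of the 1841, and 0 higher. All 52 genes at least 2-fold higher and all 59 at least 2-fold lower were called in the same direction with CsA. Over the 19935 genes, which are not independent replicates, the differences of both steps had a Pearson correlation of 0.88, given as a description.

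With CsA the calls were 17 of 23 macrophage, 24 of 30 lysosomal and 15 of 20 lipid handling genes higher, and 12 of 15 primary granule genes, 16 of 20 genes of eosinophils, basophils and mast cells and 17 of 18 red cell genes lower. Other counts lay further from those without CsA. Lower calls numbered 22 with CsA and 9 without among 27 mitosis genes, 7 with CsA and 0 without among 20 of sterol synthesis, 7 with CsA and 1 without among 24 inflammatory genes, 6 with CsA and 0 without among 27 C-type lectins and immune receptors, and 7 with CsA and 4 without among 23 of conventional dendritic cells. Higher calls numbered 6 with CsA and 12 without among 14 megakaryocyte genes, and 2 with CsA and 6 without among 16 of alternative activation. These differences between lists were not tested. In the CsA cultures Mmp12 had signals of 2585, 2216 and 2099 at 48 h, against 519, 459.5 and 399 at 24 h, a difference of 2.33 ± 0.13. Epx had 132, 148 and 150.1 at 48 h, against 473, 465 and 618 at 24 h there (-1.84 ± 0.12). The arrays of both times were apart for both genes.

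The difference between the step with CsA and the step without was tested for each gene. By limma 0 genes were called with a higher difference with CsA and 3 with a lower one (0.015%), while 703 genes had an unadjusted p under 0.05 (3.53%). With the replicate block 3 were called higher and 13 lower. Alox15, 12/15-lipoxygenase of resident macrophages and eosinophils, had signals of 141, 191 and 206 at 48 h, against 809.6, 844 and 1014 at 24 h, with CsA. Without CsA they were 604, 721 and 816 at 48 h, against 1379, 1458 and 1544 at 24 h. It fell in both, with differences of -2.32 ± 0.12 with CsA and -1.04 ± 0.12 without, and the steps differed by -1.28 ± 0.17 (adjusted p = 0.00254). Adgre4, the F4/80-related receptor FIRE of monocytes, had differences of -1.78 ± 0.13 with CsA and -0.70 ± 0.13 without (-1.07 ± 0.19, adjusted p = 0.0405). F13a1, the coagulation factor XIII A chain, had -0.63 ± 0.06 with CsA and -0.08 ± 0.06 without, where it was not called (-0.55 ± 0.09, adjusted p = 0.0179). With only these 12 arrays in the fit, none of the 3 was called (adjusted p = 0.0767 for Alox15 and F13a1, 0.111 for Adgre4). Bex1, among the largest rises without CsA, had 0.72 ± 0.16 with CsA and 1.93 ± 0.16 without, and the test of the difference missed the threshold (-1.22 ± 0.23, adjusted p = 0.0541), which it passed with the block (adjusted p = 0.0358).

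**Figure D4:**
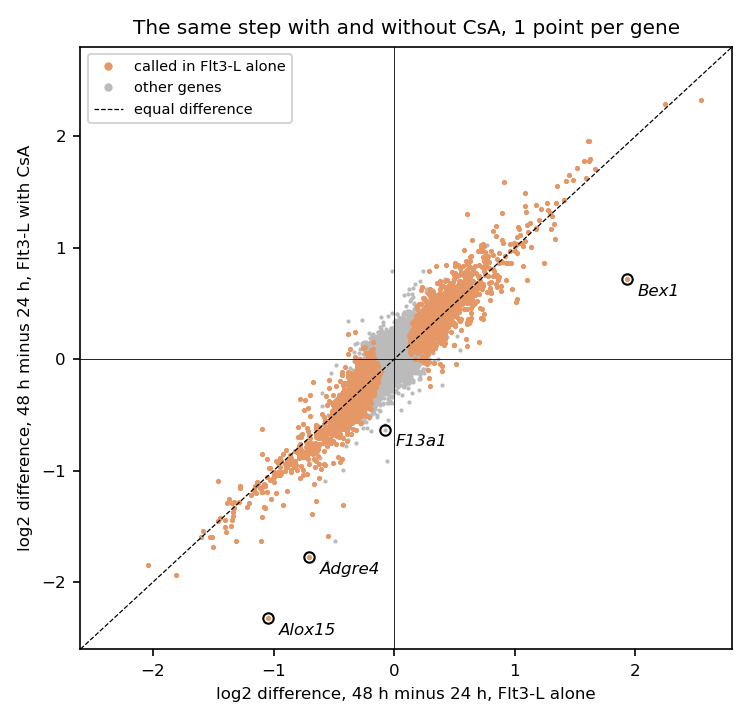
Difference in log2 signal, 48 h minus 24 h, with CsA (vertical axis) against the same difference without CsA (horizontal axis), 1 point per gene, with a dashed line where both are equal. Orange genes were called without CsA; circles mark Alox15, Adgre4 and F13a1, whose steps differed by limma, and Bex1, at an adjusted p of 0.0541.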

How the data were processed

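RNA of the cultures was amplified, labelled with biotin and hybridised to 1-colour Affymetrix Mouse Gene 1.0 ST arrays. The authors used RMA, of no stated version, to summarise and normalize the probe sets, per the submitters' processing notes. The deposited intensity values lie between 5.2 and 18180.7 and are therefore linear, so their log2 was used here. Of 28815 probe sets, 21780 carry 1 gene symbol in GEO's table for the platform, whose symbols may be outdated. The 1605 with several symbols and the 5430 not named were left out of the gene counts. For 998 genes with several probe sets the brightest on average was used, which gave 19935 genes. No filter on dim signals was used.

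A limma 3.58.1 model (R 4.3.3) with 1 mean for each of the 9 groups used all arrays and moderated variances (eBayes), and p was adjusted over all genes by the Benjamini-Hochberg method. Errors are SE from that fit, and counts are of genes at an adjusted p under 0.05. The code was tested on simulated data. The contrasts were 48 h minus 24 h without CsA, the same with CsA, the difference of both, and both neighbouring steps without CsA. Tables were made with Python 3.11.15 and pandas 2.3.3.

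Named genes are the 15 largest rises and falls among called genes whose arrays do not overlap, leaving out predicted genes, small RNA genes, olfactory, vomeronasal and taste receptors and immune receptor segments, the called genes of the difference between both steps under the same exclusions, and members of the gene lists. The 43 lists of cell types and functions have 954 entries, of which 889 were matched and 7 of those by an older symbol, giving 801 different genes. The comparison, its members and the lists were chosen with earlier results of these data known, so a list is described by its counts and median and has no test of its own.

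The labels number the replicates in each group and state no pairing. Deviations from the group means correlated between same-numbered arrays at 48 h and 24 h (0.46, 0.45 and 0.41), so the numbers were taken to pair the samples, from the data alone. Correlations between all others were below 0. This is partly forced, because deviations from a group's mean sum to 0, and is no separate sign of pairing. For CsA the same-number values were 0.41, 0.39 and 0.05, against 0.06 and 0.03 between the unlike numbers 2 and 3. The main counts, SE and adjusted p still come from the fit without pairing, which called 1936 genes higher and 1482 lower. The fit with the replicate number as a block, on the compared groups only, called 2227 and 1968. It is given beside results whose count it moves by over 1.5 times. Alternatives were other variance, normalization, filter and probe set settings, array weights, fits on the compared groups only, and leaving out single arrays.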

Additional observations from a re-analysis of the deposited data

Results flagged for a closer look

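The step from 24 h to 48 h differed between cultures with and without CsA, by limma's test of the difference, for 3 genes. Alox15, 12/15-lipoxygenase, had a difference of -2.32 ± 0.12 with CsA and -1.04 ± 0.12 without, which differ by -1.28 (SE in limma's fit on 3 arrays a group; adjusted p = 0.00254). Adgre4, a monocyte receptor related to F4/80, had -1.78 ± 0.13 with CsA and -0.70 ± 0.13 without, a difference of -1.07. Its signals were 103, 134 and 139 at 48 h, against 351, 464 and 478 at 24 h with CsA. Without CsA they were 402, 475 and 440.5 at 48 h, against 649.6, 759.7 and 738 at 24 h, so both steps went down. F13a1, the coagulation factor XIII A chain, had -0.63 ± 0.06 with CsA and -0.08 ± 0.06 without, a difference of -0.55, and only the step with CsA was called for it. These 3 genes are 0.015% of those tested. Adgre4 lost its call, at adjusted p of 0.0621 to 0.19, without any 1 of the arrays at 24 h, the second or the third at 48 h (Flt3-L alone), the second or the third at 24 h or the first at 48 h (CsA). F13a1 lost it, at 0.0504 to 0.113, without the second or the third array at 24 h or the second at 48 h (Flt3-L alone), the second or the third at 24 h or the first at 48 h (CsA). Alox15 kept its call without any single array. With only the 12 compared arrays in the fit, however, none of the 3 was called. The limma adjusted p was then 0.0767 for Alox15 and F13a1 and 0.111 for Adgre4.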

How the results depend on the processing

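With other variances, a filter on dim genes, quantile or median scaling, the mean of probe sets, array weights or only the compared groups, the step without CsA kept within 1.5 times its 1936 higher and 1482 lower calls, with 1371 and 1132 at the fewest, from the compared groups alone. Leaving out 1 array gave 1407 to 1794 higher and 1142 to 1266 lower calls. With both arrays numbered 1 left out, which was chosen after seeing the data, 1248 and 905 were called. Higher calls there numbered 4 for chemokine ligands, 6 for ribosome biogenesis, 3 for glucose use, 2 for p53 targets and 1 for cycle entry. Lower calls numbered 4 for B lineage genes, 5 for T and NK cell genes, 3 for cycle entry, 2 for S phase, 2 for growth factor receptors and feedback, 4 for lineage transcription factors, 2 for complement and coagulation, 2 for interferon-stimulated genes and 0 for chemokine ligands. Ackr3 (adjusted p = 0.076) and Vpreb3 (adjusted p = 0.0519) lost their calls there. The paired fit with the replicate block gave 2227 higher and 1968 lower calls, and 2396 and 1759 for the step with CsA. For the step without CsA it changed no call of a gene named in the text other than those given beside their values. For the difference between both steps it also gave calls to Ccr3 (adjusted p = 0.00278), Fcer1a (adjusted p = 0.0217), Igll1 (adjusted p = 0.0122) and Ms4a7 (adjusted p = 0.0283). For the difference between both steps, higher calls numbered 0 and became 3 with trended and robust variances, 2 without the dimmest genes, 1 after quantile normalization, 1 with array weights and 3 with the replicate block, and 0 to 1 without single arrays. Its 3 lower calls became 5 without the dimmest genes, 6 with array medians subtracted, 0 with only the compared groups, 13 with the replicate block and 1 to 4 without single arrays. The causes of these changes were not tested, beyond there being fewer genes or arrays in some settings. Of 2655 repeated values of 173 named genes, 2550 kept their direction and side of the threshold, 105 lost the call and 0 reversed.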

Other observations

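Further gene groups differed in the direction of their calls at 48 h, beside 9.71% of all genes called higher and 7.43% lower. Of 16 measured genes associated with alternative macrophage activation by IL-4, 6 were called higher and 3 lower. Egr2 (1.17 ± 0.10) and the lectin Clec10a (0.51 ± 0.15) rose. Arg1 (-0.09 ± 0.11), Retnla (-0.24 ± 0.09) and Chil3 (-0.20 ± 0.12), the best known members in mice, were not called. With the replicate block 5 were lower, Retnla (adjusted p = 0.0279) and Chil3 (adjusted p = 0.0250) included. The count of higher calls was 3 without the first array at 24 h or the third at 48 h, and that of lower calls was 1 without the third at 24 h or the first at 48 h. Clec10a lost its call without the first or the second array at 24 h or the third at 48 h (adjusted p 0.0542 to 0.148). Of 27 measured C-type lectins and immune receptors, 9 were called higher and 0 lower, with up to 2 lower in other settings without the block. Siglec1 had signals of 737, 673 and 722 at 48 h, against 288, 251 and 244 at 24 h, apart on all arrays, and Clec7a (0.29 ± 0.09), the beta-glucan receptor dectin-1, rose, while Clec4e (-0.28 ± 0.12) and Trem1 (-0.21 ± 0.16) were not called. With the replicate block 11 were higher and 7 lower, Clec4e (adjusted p = 0.00699) and Trem1 (adjusted p = 0.0272) included. Of 19 genes of leukotriene and prostaglandin metabolism, 4 were higher and 4 lower. Hpgds (0.84 ± 0.10), a prostaglandin D synthase, Tbxas1 (0.53 ± 0.05), thromboxane synthase, and Hpgd (0.61 ± 0.10), which inactivates prostaglandins, rose. Ptgs2 (0.27 ± 0.15), cyclooxygenase-2, was not called without the block (adjusted p = 0.00757 with it). Alox5 (-0.27 ± 0.08), 5-lipoxygenase, Lta4h (-0.31 ± 0.07), leukotriene A4 hydrolase, and Ltb4r1 (-0.38 ± 0.09), a leukotriene B4 receptor, fell. Of 18 complement and coagulation genes 7 were higher and 4 lower, 7 with the block. Beside C1q, F7 (0.75 ± 0.10) and Cfp (0.45 ± 0.05), properdin, rose and F10 (-0.72 ± 0.08) fell. Of 15 iron handling genes 6 were higher and 1 lower, with Hmox1 (0.61 ± 0.12), haem oxygenase, and the iron exporter Slc40a1 (0.27 ± 0.06) among the rises and Ncoa4 (-0.20 ± 0.05), which sends ferritin to degradation, lower.

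Among stress and energy genes the direction of the calls differed by group, beside the same shares of all genes (9.71% higher and 7.43% lower). Of 21 measured p53 target genes, 11 were called lower and 5 higher (median -0.21). Gadd45a (-0.78 ± 0.09), Trp53inp1 (-0.61 ± 0.05) and Bbc3 (-0.55 ± 0.07) fell, and Plk2 (1.22 ± 0.09) rose. The count of higher calls was 3 without the first or the third array of either time or with only the compared groups. Of 25 genes of ATF4 and amino acid supply 6 were lower, Trib3 (-0.77 ± 0.11) and Ddit3 (-0.53 ± 0.11) first, and 2 higher (1 without the first or the second array at 24 h or the third at 48 h, 4 without the first at 48 h and 5 with array weights). Of 19 NRF2 antioxidant genes 5 were higher and 4 lower, with Txnrd1 (0.40 ± 0.05) above and Nqo1 (-0.49 ± 0.16) below. Nqo1 lost its call without the second or the third array at 24 h or the first or the second at 48 h (adjusted p 0.0793 to 0.147). Of 22 genes of oxidative phosphorylation and the citrate cycle 8 were higher and 0 lower, led by Fh1 (0.43 ± 0.08), fumarase. Of 23 genes of glucose use 6 were higher and 2 lower, Pdk1 (0.47 ± 0.08) and Bnip3l (-0.35 ± 0.05) at the ends, with 1 lower without the second or the third array at 24 h or the third at 48 h. Of 25 growth factor receptors and feedback genes 6 were higher and 8 lower. Dusp6 (0.35 ± 0.04) and Spred1 (0.61 ± 0.08), which restrain ERK signalling, rose, and Pim1 (-0.72 ± 0.05) and Cish (-0.24 ± 0.08), targets of STAT5, fell. The lower count was 5 without the first or the third array at 24 h or the second or the third at 48 h, 3 without the first at 48 h and 5 with only the compared groups. Of 35 lineage transcription factors 8 were higher and 7 lower. Bhlhe41 (0.82 ± 0.13) and Maf (0.46 ± 0.08) rose, and Spi1 (-0.09 ± 0.05), the gene of PU.1, was not called. The lower count was 4 without the first array at 24 h or the second at 48 h. Of 20 stromal and endothelial genes 1 was higher, Kitl (0.60 ± 0.12), and 1 lower, Fn1 (-0.68 ± 0.11), and with the block 2 were higher and 3 lower.

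The arrays also hold 296 microRNA genes, measured at the hairpin or its host transcript and not as the mature RNA. Of these 3 were called higher (1.01%) and 1 lower (0.338%), against 9.71% and 7.43% of all genes. The 4 were chosen here after their values were seen. Mir221 had signals of 67.4, 57.0 and 57.9 at 48 h, against 47.3, 43.2 and 47.3 at 24 h, and Mir222 had 77.5, 66.8 and 66.4 at 48 h, against 59.4, 50.1 and 59.5 at 24 h. These signals all lay below the array medians of 117.3 to 123.9. Both genes rose, by 0.40 ± 0.13 for Mir221 and 0.32 ± 0.10 for Mir222. Their mature 3p strands from RefSeq (GRCm38.p6) lie next to each other on the X chromosome (chrX:19146307-19146329, minus strand, and chrX:19146901-19146923, minus strand) and share a seed, bases 2 to 8, in capitals.
mmu-miR-221-3p: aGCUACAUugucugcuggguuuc
mmu-miR-222-3p: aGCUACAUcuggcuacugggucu

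Mir128-1 (0.39 ± 0.12) rose and Mir184 (-0.32 ± 0.09) fell, with other seeds.
mmu-miR-128-3p: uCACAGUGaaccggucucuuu
mmu-miR-184-3p: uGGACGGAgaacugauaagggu

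Probe sets left out of the gene counts were tested in the same fit. Of 5430 not named, 125 were called higher and 153 lower, 5.12% in all, and of 1605 with several symbols 62 were higher and 68 lower, 8.10%, against 16.0% of those with a single symbol. The difference between these shares was not tested.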
